A study of Mus musculus with 6 samples.

Results

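UDP-glucuronosyltransferases (UGTs) are membrane enzymes of the endoplasmic reticulum that attach a sugar, mostly glucuronic acid from UDP-glucuronic acid, to small lipophilic molecules and so make them more water soluble. The UGT1A enzymes conjugate bilirubin, phenols and many drugs, and UGT1A1 is known for inactivating SN-38, a camptothecin. The UGT2B enzymes conjugate steroids, fatty acids and drugs, and in the prostate UGT2B15 and UGT2B17 are known for inactivating dihydrotestosterone and its metabolites. UGT8 belongs to the same superfamily but uses UDP-galactose, which it transfers to ceramide to make galactosylceramide.

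The genes described here are UGT2B7, UGT2B10, UGT2B11, UGT2B15, UGT2B17, UGT2B28, UGT1A1, UGT1A6, UGT1A10 and UGT8, which were taken by gene symbol and make up 10 of the 58735 genes in the deposited count table. RNA-Seq covered 22Rv1, a human prostate cancer cell line, with 3 libraries of parental cells given vehicle and 3 libraries of the 22Rv1 BL-B01D1_R subline, which was derived from the parental cells by culture with rising concentrations of BL-B01D1. BL-B01D1 is an antibody–drug conjugate against EGFR and HER3 that carries Ed-04, a camptothecin derivative and topoisomerase I inhibitor. The resistant libraries came from 1 subline, so selection for resistance and drift of that subline cannot be told apart, and the spread between libraries, which may be technical, does not cover a repeated selection. The sources used here do not say whether drug was present when the resistant cells were harvested. Mouse is given as the organism in the labels, but all 58735 gene identifiers are human, and the values are treated here as human.

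Total counts on genes lay between 13821639 and 17251491 per library, and 3 counts, taken as the limit of what a count of 0 allows, corresponded to 0.174 to 0.216 CPM (counts per 1e+06 counts of TMM-scaled library size). Of the 10 prostate line markers checked, all were detected and tested, and their summed level was 3262 to 3329 CPM in parental and 3337 to 3371 CPM in resistant libraries. The 3 endothelial markers summed to at most 0.185 CPM in any library and the 3 leukocyte markers to at most 0.288 CPM. The 4 stromal markers summed to 111 to 114 CPM in parental and 39.0 to 43.4 CPM in resistant libraries. Most of this was LUM, which was called lower (log2 fold change −1.74), while COL1A1 fell by 0.28 on the log2 scale (edgeR FDR 0.0348), DCN had 11 to 29 counts and did not pass the test, and COL1A2 had at most 2 counts. The 5 hepatocyte genes summed to 302 to 316 CPM in parental and 88.9 to 92.7 CPM in resistant libraries, nearly all of it ALB, which was called lower (−1.77), while SERPINA1 had no count and APOA1, APOB and TTR had at most 6. Their part in the UGT results was not tested.

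Of the 10 UGT genes, UGT8 and UGT2B15 were clearly detected, UGT2B10 was present at a trace, and the other UGT2B genes had between 1 and 6 counts in a library. The 3 UGT1A genes had at most 1, in counts that may not cover the exons they share. In the resistant subline UGT2B15 mRNA fell to 0.48 of its parental level (95% confidence interval 0.396 to 0.581), while UGT8 mRNA rose by a factor of 1.12 (1.05 to 1.19). In bulk RNA of a cell line, fewer cells with a transcript and less of it per cell cannot be told apart. UGT2B10 and UGT2B7 had fewer counts in every resistant library than in any parental library, at depths too low for the test across genes. Among all tested genes, 22.8% lay lower in CPM without overlap, and no such share was taken for genes at these depths. The plot of counts by library shows the gap between the 2 well-detected genes and the rest.

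**Figure D1:**
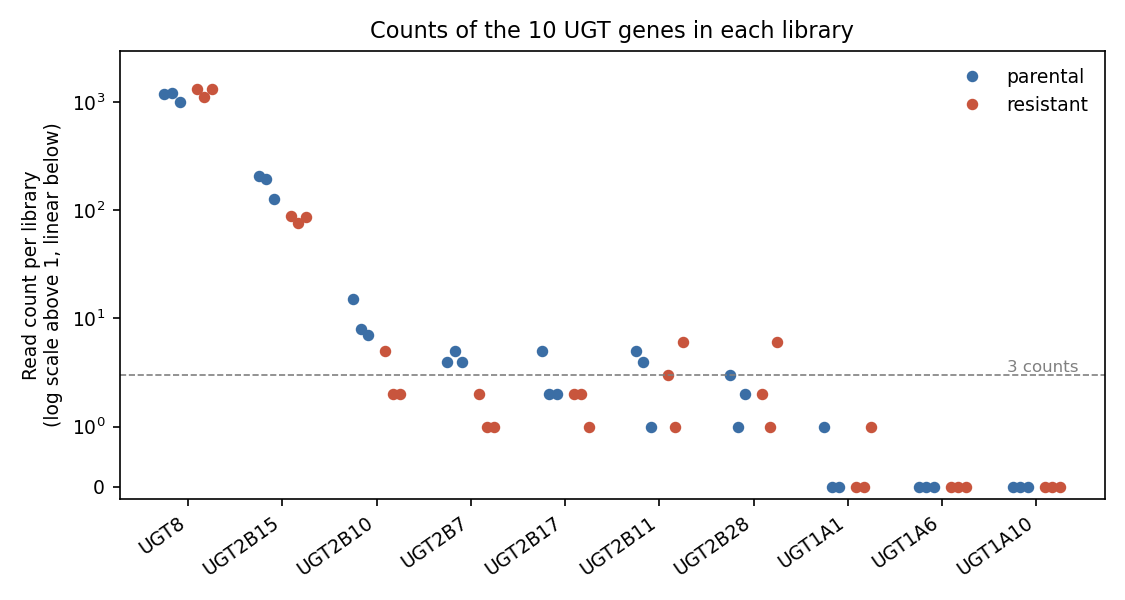
Read counts (y axis, log scale above 1 and linear below) of the 10 UGT genes in each of the 3 parental (blue) and 3 resistant (red) libraries, with a dashed line at 3 counts. UGT8 has 997 to 1337 counts and UGT2B15 has 76 to 208, UGT2B10 reaches 15, and UGT1A6 and UGT1A10 have 0 in every library.

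The groups were compared by a quasi-likelihood test in edgeR with TMM-scaled library sizes and Benjamini-Hochberg adjustment (FDR) over the 17142 genes that passed edgeR's filter on low counts. A gene was called where its FDR was below 0.05 and its log2 fold change exceeded 1 in either direction, the thresholds of the study's methods. These calls covered 5.37% of all tested genes. Of the 10 UGT genes, 2 passed the filter and 8 did not. UGT2B15 was called lower, in a comparison in which 2.84% of all tested genes were called lower, and 0 UGT genes were called higher, against 2.53% of all tested genes. At an FDR below 0.05 alone, both tested UGT genes changed, against 35.5% of all tested genes, 17.1% higher and 18.4% lower.

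UGT2B15 (ENSG00000196620) lies on chromosome 4 of hg38 (68646630 to 68670628, reverse strand), is protein-coding and encodes an enzyme that conjugates dihydrotestosterone and androstanediol. Parental libraries 1, 2 and 3 held 208, 195 and 128 counts of it, and resistant libraries 1, 2 and 3 held 88, 76 and 87. Scaled to library size, these were 12.1, 11.6 and 9.22 CPM in parental cells and 5.31, 5.17 and 5.36 CPM in resistant cells. The groups did not overlap, as the lowest parental library still stood well above the highest resistant library. Groups that did not overlap in this direction were seen in 22.8% of all tested genes.

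Parental cells averaged 11.0 ± 1.53 CPM of UGT2B15 (SD, n = 3), and resistant cells 5.28 ± 0.10 CPM (SD, n = 3). This was a log2 fold change of −1.06 (SE 0.137, edgeR FDR 2.88e-08), or 2.09-fold lower with a 95% confidence interval of 1.72 to 2.53. Of all tested genes, 452 had a lower log2 fold change, or 2.64%. For this gene alone, an exact permutation test over the libraries gave a two-sided p = 0.1, the smallest that 3 libraries against 3 allow. The call rests on a log2 fold change close to the threshold. Without parental replicate 1 the log2 fold change was −0.99 (edgeR FDR 3.13e-07), which left the difference significant but ended the call, and glmTreat in edgeR, which tests for a change beyond a log2 value of 1, gave an FDR of 1.

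Parental libraries varied more in UGT2B15 than resistant libraries. Parental replicate 3, which was also the shallowest library, held the lowest parental value, with a 95% Poisson interval of 7.69 to 11.0 CPM around 9.22 CPM. Parental replicate 1 had an interval of 10.5 to 13.8 CPM, which overlaps the former between 10.5 and 11.0 CPM. The highest upper limit among the resistant libraries was 6.61 CPM, below the lower limit of every parental library. These intervals cover counting error only.

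**Figure D2:**
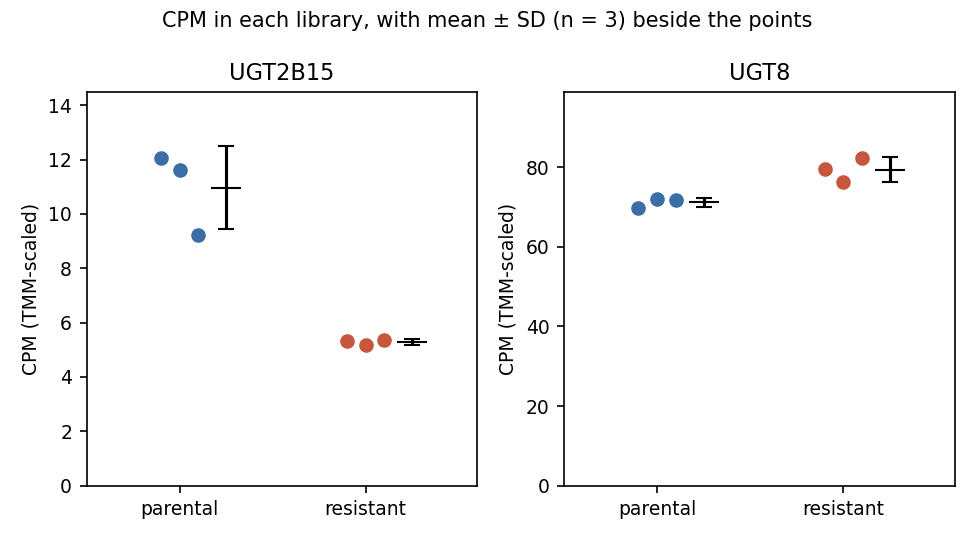
CPM (y axes, from 0) of UGT2B15 and UGT8 in each parental (blue) and resistant (red) library, with the mean ± SD of 3 libraries as black bars beside the points. UGT2B15 stands at 9.22 to 12.1 CPM in parental and 5.17 to 5.36 CPM in resistant libraries, and UGT8 at 69.7 to 71.9 and 76.1 to 82.4 CPM.

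The gene next to UGT2B15 in function, UGT2B17 (ENSG00000197888; chromosome 4, 68537184 to 68568527), encodes a close homolog that also conjugates androgens. It had 5, 2 and 2 counts in parental and 2, 2 and 1 in resistant libraries, and the groups overlapped. Per length, in FPKM (CPM divided by gene length in kilobases), its parental level was 0.0888 ± 0.0445 (SD, n = 3) against 5.28 ± 0.74 (SD, n = 3) for UGT2B15. The ratio of its summed counts, resistant over parental and scaled to library size, was 0.56 with a 95% counting interval of 0.147 to 1.86, so neither a fall like that of UGT2B15 nor an increase was detectable at this depth. UGT2B15 and UGT2B17 are highly alike in sequence, and how reads that fit more than 1 gene were counted is not given in the sources used here, so the split between them is uncertain. The sum of both genes had a ratio of 0.478 (0.41 to 0.556), next to 0.477 (0.409 to 0.555) for UGT2B15 alone.

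UGT2B28 (ENSG00000135226; chromosome 4, 69280499 to 69295050), another steroid-conjugating member, had 3, 1 and 2 counts in parental and 2, 1 and 6 counts in resistant libraries. Resistant replicate 3 alone stood above the parental libraries, and the count ratio was 1.51 with a counting interval of 0.481 to 5.16. UGT2B11 (ENSG00000213759; chromosome 4, 69199951 to 69214731) had 5, 4 and 1 counts against 3, 1 and 6. Its groups overlapped fully, with a count ratio of 1.01 (0.377 to 2.7), and a gene on the opposite strand, AC111000.4, overlaps it with at most 2 counts.

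UGT2B10 (ENSG00000109181; chromosome 4, 68815993 to 68831196) encodes an enzyme known for N-glucuronidation of amines such as nicotine. It had 15, 8 and 7 counts in parental libraries and 5, 2 and 2 in resistant libraries. The resistant libraries lay below the parental ones without overlap, as in 22.8% of all tested genes, a share taken without genes below the filter such as UGT2B10. The count ratio was 0.303 with a counting interval of 0.126 to 0.654. When the filter on low counts was removed, edgeR's test gave a log2 fold change of −1.68 (SE 0.648) with an FDR of 0.0561 and an unadjusted p of 0.0097, so the difference did not pass the threshold.

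UGT2B7 (ENSG00000171234; chromosome 4, 69051363 to 69112987), which conjugates morphine and many other drugs, had 4, 5 and 4 counts in parental libraries and 2, 1 and 1 in resistant libraries. The groups again did not overlap, as in 22.8% of all tested genes in this direction, but the count ratio of 0.31 had an interval of 0.0737 to 1.004. Without the filter on low counts, edgeR's FDR for UGT2B7 was 0.362. For UGT2B10 and UGT2B7 the exact permutation test gave a two-sided p = 0.1 each, the smallest possible.

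UGT2B15 made up most of what was counted on the UGT2B genes described. Its share of their summed counts was 88.6% in parental cells (531 of 599; 95% exact binomial interval 85.8 to 91.1) and 87.2% in resistant cells (251 of 288; 82.7 to 90.8). The other 5 genes summed to 68 counts in parental and 37 in resistant cells, a ratio of 0.549 (counting interval 0.357 to 0.831), a sum chosen after the values were seen and given without a test. Over all 7 UGT2B genes in the table, UGT2B4 included, the level was 12.5 ± 1.82 CPM (SD, n = 3) in parental and 6.05 ± 0.36 CPM (SD, n = 3) in resistant cells.

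**Figure D3:**
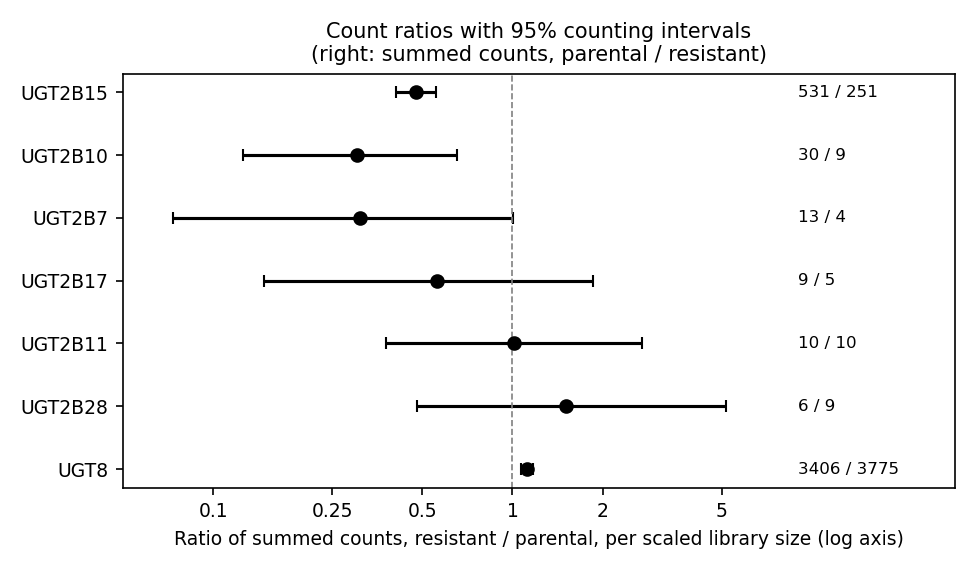
Ratio of summed counts per scaled library size, resistant over parental (x axis, log scale), for the 7 UGT genes with more than 2 counts in all, with 95% counting intervals as bars and the summed counts at the right. The intervals of UGT2B15 (0.409 to 0.555) and UGT2B10 (0.126 to 0.654) lie below 1, that of UGT8 (1.07 to 1.17) lies above 1, and the others include 1.

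The UGT1A genes lie on the forward strand of chromosome 2 of hg38. They have their own first exons and share the following ones, so that each enzyme has its own substrate-binding part and a common part that binds UDP-glucuronic acid. UGT1A1 (ENSG00000241635; 233760248 to 233773299), the enzyme of bilirubin conjugation, had 1 count in parental replicate 1 and 1 in resistant replicate 3. UGT1A6 (ENSG00000167165; 233691607 to 233773300), which conjugates small phenols, and UGT1A10 (ENSG00000242515; 233636454 to 233773305), an enzyme mostly of the gut, had 0 counts in all 6 libraries, which allows up to 0.216 CPM in the shallowest library and 0.174 CPM in the deepest. No difference between the groups could be measured for these genes.

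What these zeros cover is narrower than the gene. All 9 UGT1A genes of the table overlap over 13052 bases, from 233760248 to 233773299, and 8 of the 9 had 0 counts in every library. featureCounts leaves reads that overlap several genes unassigned unless told otherwise, and the setting used is not given in the sources used here. The counts may therefore reflect the parts of each gene outside the shared exons.

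UGT8 (ENSG00000174607) lies on chromosome 4 (114598455 to 114678224, forward strand), is protein-coding and was the most highly expressed of the 10 genes. It had 1202, 1207 and 997 counts in parental and 1318, 1120 and 1337 in resistant libraries, or 69.7, 71.9 and 71.8 CPM against 79.5, 76.1 and 82.4 CPM. All resistant libraries exceeded all parental libraries, by a margin smaller than the range of the resistant group. Groups apart in this direction were seen in 22.1% of all tested genes.

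UGT8 averaged 71.1 ± 1.22 CPM (SD, n = 3) in parental and 79.3 ± 3.13 CPM (SD, n = 3) in resistant cells, a log2 fold change of 0.16 (SE 0.0469, edgeR FDR 0.00668). It was not called, since the change was under the fold threshold. Without resistant replicate 3, which had the highest value, the log2 fold change was 0.13 and the edgeR FDR 0.0554, so its significance rests on that library.

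Ordered by level per length, UGT8 stood first at 15.1 ± 0.26 FPKM (SD, n = 3) in parental and 16.9 ± 0.67 FPKM (SD, n = 3) in resistant cells, above 80.5% and 82.6% of all tested genes. UGT2B15 came next, at 5.28 ± 0.74 FPKM in parental and 2.54 ± 0.0485 FPKM in resistant cells (SD, n = 3), above 54.8% and 38.3% of the tested genes. The ratio of UGT8 to UGT2B15 in FPKM within a library was 2.55, 2.74 and 3.44 in parental and 6.62, 6.51 and 6.79 in resistant libraries, without overlap. UGT2B10 followed at 0.319 ± 0.114 FPKM in parental and 0.0968 ± 0.0515 FPKM in resistant cells (SD, n = 3). UGT2B7, UGT2B17, UGT2B11 and UGT2B28 had parental means between 0.0687 and 0.121 FPKM. Their order was mostly not resolved beyond the spread between libraries. Only UGT2B7 (0.103 to 0.132 FPKM) and UGT2B28 (0.0325 to 0.0949 FPKM) did not overlap in parental libraries, at 1 to 5 counts each.

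The table holds 22 further genes whose symbols start with UGT, 12 protein-coding and 10 pseudogenes. Of these, 18 had no count in any library and 0 passed the filter. UGT3A2 had 10, 9 and 6 counts in parental and 2, 3 and 2 in resistant libraries, a ratio of 0.282 (counting interval 0.103 to 0.672). The remaining 3, named after their values were seen, were UGT3A1 with 12 counts in parental and 2 in resistant cells, UGT2B4 with 6 and 0, and UGT2B24P with 1 and 0.

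The genes around the UGT2B cluster were mostly silent. Within 500 kb of the UGT2B genes the table lists 73 genes, of which 23 had a count and 3 passed the filter, namely UGT2B15, YTHDC1 and UBA6-AS1. YTHDC1, which encodes a reader of m6A in RNA, fell by 0.17 on the log2 scale (edgeR FDR 0.00245), and UBA6-AS1 stood at a log2 fold change of 0.17 (edgeR FDR 0.392). UGT2B15 was thus the 1 gene called among the 3 tested in this window, against 5.37% of all tested genes called. Near the UGT1A genes, 5 of 40 genes were tested and 0 called (log2 fold changes −0.21 for DGKD to 0.22 for USP40). At an FDR below 0.05, 3 of these 5 changed, 1 higher and 2 lower, against 35.5% of all tested genes. Near UGT8, NDST4 alone was tested besides UGT8 itself, with a log2 fold change of 0.61 (edgeR FDR 0.301) from 7 to 15 counts in a library.

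Genes that work alongside the UGTs were followed in 5 lists. Of their 75 genes, 47 were tested, 2 were called higher and 1 lower, which is 4.26% and 2.13% of those tested against 2.53% and 2.84% of all tested genes. At an FDR below 0.05, 11 rose and 11 fell, 23.4% each against 17.1% and 18.4% of all tested genes, and 25 did not pass. The plot of list genes shows UGT2B15 near the lower end of these changes and UGT8 near their middle.

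**Figure D4:**
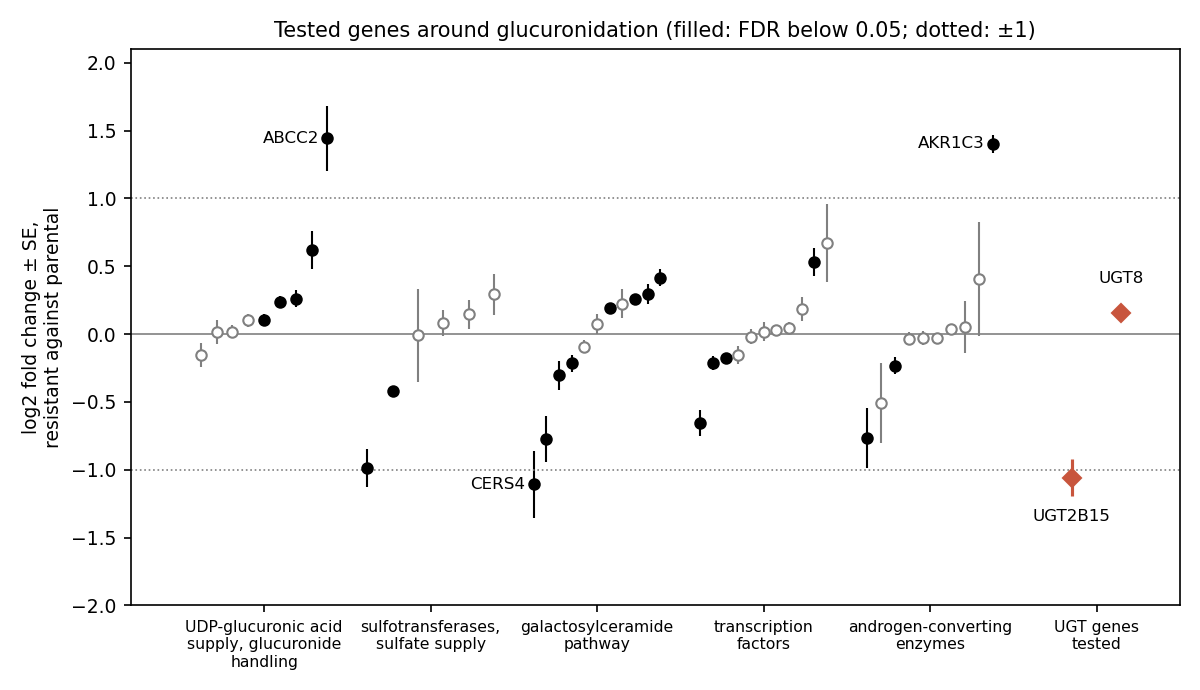
Log2 fold change ± SE, resistant against parental (y axis), of each tested gene in the 5 lists and of the 2 tested UGT genes (red diamonds). Filled points have an FDR below 0.05, dotted lines mark 1 and −1, and the genes beyond them are ABCC2 (1.44), AKR1C3 (1.40), CERS4 (−1.11) and UGT2B15 (−1.06).

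The genes of UDP-glucuronic acid supply named in this paragraph were all tested. The lowest of them was SLC35D2, at 6.24 ± 0.89 CPM in parental and 9.53 ± 1.09 CPM in resistant cells (SD, n = 3). UGDH, which oxidizes UDP-glucose to UDP-glucuronic acid, rose from 128 ± 5.07 to 151 ± 4.81 CPM (SD, n = 3), with a log2 fold change of 0.24 (edgeR FDR 2.19e-06). SLC35D1, a carrier of UDP-glucuronic acid into the endoplasmic reticulum, rose by a log2 value of 0.26 (edgeR FDR 0.00104), and SLC35D2, a related nucleotide sugar carrier, by 0.62 (edgeR FDR 4.16e-04). UGP2, which makes UDP-glucose, stood at 86.2 ± 4.14 and 92.7 ± 6.47 CPM (SD, n = 3) and did not pass the test (edgeR FDR 0.091).

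GUSB, the lysosomal enzyme that removes glucuronic acid, rose by a log2 value of 0.10 (edgeR FDR 0.0467). ABCC2, an exporter of glucuronides, was the 1 gene of this list called higher. In all, 5 of 9 tested genes of the list rose, 0 fell and 4 did not pass, against 17.1% of all tested genes higher and 18.4% lower, with a median log2 fold change of 0.10 beside 0.00379 for all tested genes.

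Sulfotransferases conjugate many of the same substrates. Of 16 genes in that list, 6 were tested, and the 2 that changed were PAPSS2 (log2 fold change −0.99, edgeR FDR 1.87e-07) and PAPSS1 (−0.42, edgeR FDR 8.63e-14), which make the sulfate donor. At an FDR below 0.05, 18.4% of all tested genes fell and 17.1% rose. PAPSS2 fell from 10.4 ± 0.72 to 5.29 ± 0.75 CPM (SD, n = 3), just short of the fold threshold. SULT1A1 stood at a log2 fold change of 0.08 (edgeR FDR 0.55), and 10 genes of the list had too few counts.

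In the galactosylceramide list around UGT8, 4 of 11 tested genes rose and 4 fell, against 17.1% and 18.4% of all tested genes, with a median log2 fold change of 0.07. FA2H, which makes the hydroxylated fatty acids of many galactosylceramides, fell by 0.78 on the log2 scale (edgeR FDR 2.82e-04), and GAL3ST1, which sulfates galactosylceramide, fell by 0.30 (edgeR FDR 0.0234). CERS4, a ceramide synthase, was called lower, from 69, 64 and 54 counts to 22, 20 and 44. Its call was lost without resistant replicate 1 (log2 fold change −0.92) or without resistant replicate 2 (−0.95), and without resistant replicate 3 the value was −1.53. ARSA and PSAP, which act in lysosomal breakdown of sulfated galactosylceramide, rose by 0.42 and 0.26 on the log2 scale, and GALC, which removes the galactose, did not pass the test (0.22, edgeR FDR 0.107).

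Androgens are known to lower UGT2B15 and UGT2B17 transcripts in prostate cancer cells, and FOXA1 is known to bind near these genes. FOXA1 mRNA fell by 0.17 on the log2 scale (SE 0.029, edgeR FDR 4.32e-06). Among genes that androgens are known to raise, KLK3, KLK2 and TMPRSS2 rose by 0.91, 0.70 and 0.79 on the log2 scale (edgeR FDR 6.06e-04 or less). Whether these changes bear on UGT2B15 was not tested.

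Of the 11 tested transcription factors, the 3 that fell were VDR (log2 fold change −0.66, edgeR FDR 6.45e-07), POU2F1 (−0.22, edgeR FDR 7.63e-04) and FOXA1, and 7 did not pass the test. Of all tested genes, 18.4% fell and 17.1% rose at an FDR below 0.05. HNF4A had at most 3 counts and CDX2 had none. Of the enzymes that form or convert androgens, 10 of 17 were tested. AKR1C3 was called higher, AKR1C1 (−0.77, edgeR FDR 0.00516) and SRD5A1 (−0.23, edgeR FDR 0.00239) fell, and 7 did not pass the test. These counts stand beside the same 18.4% lower and 17.1% higher, with 2.53% of all tested genes called higher.

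Across the alternatives that give a standard error, UGT2B15 kept a negative and UGT8 a positive log2 fold change, as the plot of alternatives shows. UGT2B15 ranged from −1.16 to −0.99 over the 6 fits that left out 1 library each and from −1.08 to −1.02 over the other settings. UGT8 ranged from 0.13 to 0.19 and from 0.14 to 0.17.

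**Figure D5:**
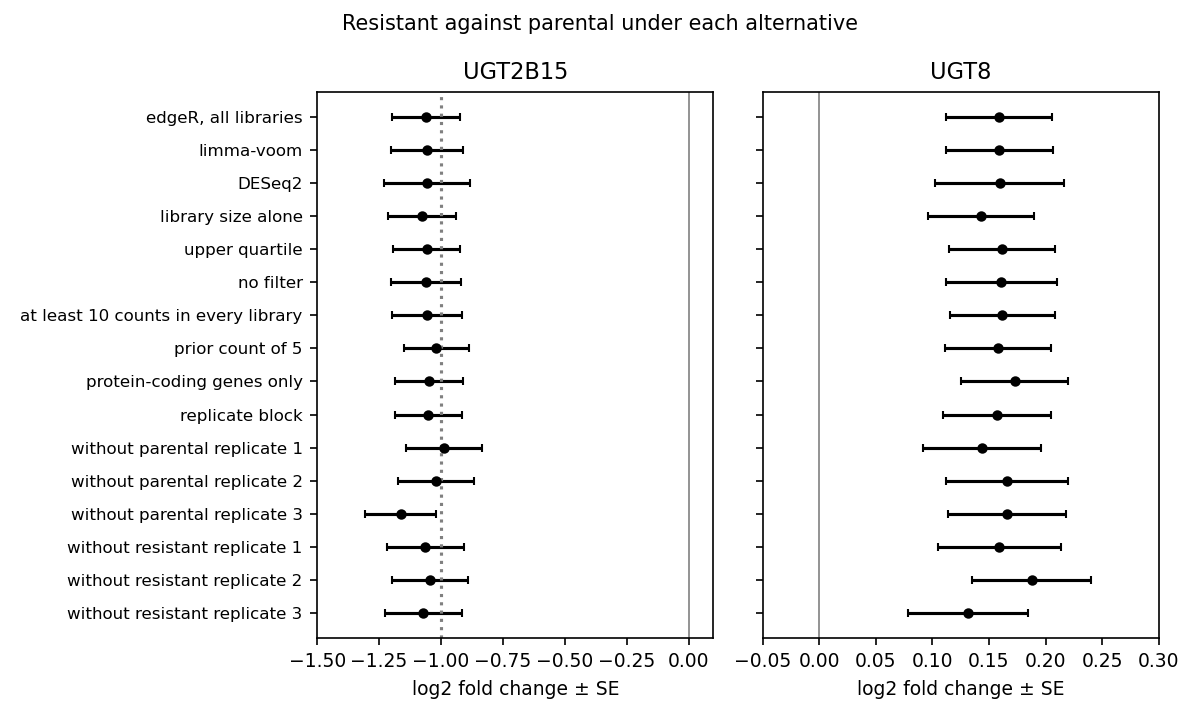
Log2 fold change ± SE, resistant against parental (x axes), of UGT2B15 and UGT8 with edgeR on all libraries and under 15 alternatives (y axis). UGT2B15 stays between −1.16 and −0.99, on both sides of the dotted line at −1, and UGT8 between 0.13 and 0.19.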

How the data were processed

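The authors filtered reads with fastp, mapped them to hg38 with HISAT2 2.0.5 and counted them per gene with featureCounts 1.5.0-p3, per the labels and the study's methods. They deposited raw counts for 6 libraries in 1 table, with gene symbols, hg38 positions and another quantity, gene length, which was used for FPKM. The annotation release and the settings for strand, multi-mapping and overlapping reads are not given in the sources used here. All per-sample columns were used.

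Counts were compared with edgeR 4.0.16 (filterByExpr, TMM, glmQLFTest) in R 4.3.3, with limma 3.58.1 (voom, the package the study names) and DESeq2 1.42.0 among the alternatives. CPM and FPKM use TMM-scaled library sizes. The SE of a log2 fold change is its absolute value over the root of the F statistic. Count ratios have exact conditional binomial and single counts exact Poisson intervals (95%), for counting error only. All members were named, other UGT genes at 10 or more counts in a library, and list genes where called, with FOXA1, UGDH, UGP2, SLC35D1 and GUSB always. A few list genes are not reported here. Further list and marker genes were named after their values were seen. The members and lists were chosen with earlier results of these data known. Libraries of a group differed by more than sampling noise (chi-square per degree of freedom 1.79 to 2.48). The tests were checked on simulated counts.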

Additional observations from a re-analysis of the deposited data

How the results depend on the processing

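Of 98 values recomputed under the alternatives, 10 were classed as moved, 3 as weaker and 85 as the same, and 0 reversed. The class of the same is broad. It includes 3 list genes called higher in place of 2, with no filter and without parental replicate 1. It also includes the log2 fold change of UGT2B15 without parental replicate 1 (−0.99), although the call was lost. With glmTreat, 0 UGT genes were called lower in place of 1, 1 list gene was called higher in place of 2 and 0 were called lower in place of 1. That test asks for more than the fold threshold, and the FDR of UGT2B15 (log2 fold change −1.06) and of UGT8 (0.16) was then 1. List genes called lower numbered 2 with library size alone, where PAPSS2 was added, and 0 with a prior count of 5. With 1 library left out, UGT genes called lower ranged from 0 to 1, list genes called lower from 0 to 2 and list genes called higher from 2 to 3. UGT2B15 lost its call without parental replicate 1 and UGT8 its significance without resistant replicate 3 (log2 fold change 0.13). The cause of these changes was not tested. Over all genes, calls numbered 434 higher and 487 lower, 248 and 287 with at least 10 counts in every library, and 178 and 144 with glmTreat. With the sum of all UGT2B genes in place of UGT2B15, the count ratio was 0.48. UGT2B15 supplied 531 of the 605 parental and 251 of the 288 resistant counts of that sum, so the ratio had little room to differ. The sum of all UGT1A genes, also among the 98 values, equals UGT1A1, because the other 8 had 0 counts.

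With the replicate number as a replicate block, UGT2B15 stood at a log2 fold change of −1.05 (edgeR FDR 4.78e-07) and UGT8 one of 0.16 (edgeR FDR 0.0112), and 418 genes were called higher and 471 lower. Libraries with the same number did not deviate together over all genes (correlations across genes −0.0196 to −0.00806). Whether they shared a step of preparation was not tested. Depth limits 8 of the 10 UGT genes, at 15 counts or fewer in a library.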
